A study of Homo sapiens with 4 samples.

Results

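The 39 HOX genes of the human genome were examined in fibroblasts before and after induction of the transcription factor FOXA2. They were taken as every gene whose symbol in the deposited table is HOX, a cluster letter from A to D and a number. This gave 40 rows of 63651, because HOXC4 has a pair of rows, of which the one with the higher mean was used (the other was at 0.442 FPKM induced and 0.136 FPKM uninduced). The HOXA cluster has 11 genes, HOXB 10, HOXC 9 and HOXD 9. The cells were BJ-5ta, human foreskin fibroblasts immortalised with telomerase, in a clonal derivative carrying FOXA2 under doxycycline control. The labels give 2 induced samples, which received 0.5 µg/ml doxycycline, and 2 uninduced samples, which received none. All were grown with bFGF, hygromycin B and puromycin, and the labels also describe an overnight mimosine block in G1 without saying which cultures had it. No culture with doxycycline and without the transgene was analysed here. How long FOXA2 was induced, and how many clones were used, is not given in the labels.

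HOX genes encode homeodomain transcription factors that lie in 4 clusters, on chromosomes 7 (HOXA), 17 (HOXB), 12 (HOXC) and 2 (HOXD). A gene's number gives its place in the cluster: low numbers stand at the end used early and towards the head of the embryo, and high numbers at the end used late and towards the tail, the limb tips and the genitalia. Adult fibroblasts of the skin keep a HOX pattern that reflects the body site they came from. In the mouse, Hoxa13 and Hoxd13 are required for the digits and the genital tubercle.

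Values are FPKM, fragments per kilobase of transcript, scaled to the number of mapped fragments, each with a deposited lower and upper bound given here in parentheses. There is 1 value per gene and group and none per sample, so no replicate spread, p-value or n can be given. A gene was called higher or lower only where its 2 deposited intervals did not overlap. By this rule FOXA2 rose to 104 FPKM (50.2 to 158) in induced cells, against 4.82 FPKM (0.526 to 9.12) in uninduced cells. All 6 fibroblast markers were detected and none was called: 1 was higher and 5 were lower in induced cells. Of all rows at 1 FPKM or more in at least 1 column, 1.18% were called and 53.7% were higher. The collagen gene COL3A1 was at 445 FPKM (82.6 to 808) induced and 125 FPKM (54.9 to 195) uninduced. THY1, a surface glycoprotein, was at 92.5 FPKM (22.4 to 163) induced and 388 FPKM (92.7 to 683) uninduced. VIM, which encodes vimentin, was at 905 FPKM induced and 2098 FPKM uninduced, the highest value of the 6 in both columns. The 6 summed to 2506 FPKM induced and 4183 FPKM uninduced. Markers of keratinocytes (3 genes, summing to 0.180 FPKM induced and 0.1002 FPKM uninduced) and endothelium (3 genes, 0.0579 and 0.0456 FPKM in the same order of columns) were near 0, and KRT5, CDH5, PECAM1, CD3E and TTR were listed at 0 in both columns. Of the leukocyte and hepatocyte markers, PTPRC was at 1.30 FPKM induced and 0.547 FPKM uninduced, and APOA1 at 1.21 FPKM induced and 0.102 FPKM uninduced. Of the melanocyte markers, MITF was at 3.66 FPKM induced and 8.62 FPKM uninduced, PMEL at 1.46 FPKM induced and 0.753 FPKM uninduced, and TYR at 0.0636 FPKM induced and 0 uninduced. In bulk RNA, fewer expressing cells and less RNA per cell cannot be told apart, and the part of other cells in the HOX values was not tested.

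Promoters are shown for the HOX gene with the highest induced value, for genes at the HOXA and HOXD ends that differed in level, for a member of the HOXB cluster, and for a start site that holds a forkhead-type motif. The RefSeq promoter table (GRCh38.p14, 250 bases before to 50 after each start) held 27 windows for 20 of the 39 genes. Capitals mark CpG dinucleotides in the first 5 sequences and the motif in the last. HOXA10 has a pair of annotated starts, at chr7:27179812-27180111 and chr7:27174271-27174570, with 21 and 25 CpG in that order. HOXA13 (chr7:27200042-27200341, 44 CpG), HOXB1 (chr17:48530962-48531261, 11 CpG), HOXD13 (chr2:176092471-176092770, 24 CpG) and the start shared by HOXC4 and HOXC5 (chr12:54016638-54016937, 15 CpG) follow. Those of HOXA and HOXB are on the minus strand, and those of HOXC and HOXD on the plus strand.
HOXA10 distal start: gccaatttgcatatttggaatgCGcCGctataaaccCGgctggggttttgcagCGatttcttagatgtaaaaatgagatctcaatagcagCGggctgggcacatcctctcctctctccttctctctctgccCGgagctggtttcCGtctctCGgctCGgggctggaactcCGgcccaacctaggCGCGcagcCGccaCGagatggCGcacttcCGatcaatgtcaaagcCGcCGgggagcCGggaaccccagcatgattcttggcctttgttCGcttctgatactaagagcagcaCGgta
HOXA10 proximal start: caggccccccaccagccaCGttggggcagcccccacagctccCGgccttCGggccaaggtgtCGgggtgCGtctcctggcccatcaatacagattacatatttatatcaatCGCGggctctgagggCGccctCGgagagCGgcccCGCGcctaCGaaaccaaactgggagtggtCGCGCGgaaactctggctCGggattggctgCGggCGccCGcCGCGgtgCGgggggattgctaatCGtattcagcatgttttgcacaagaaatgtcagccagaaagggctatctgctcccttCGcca
HOXA13: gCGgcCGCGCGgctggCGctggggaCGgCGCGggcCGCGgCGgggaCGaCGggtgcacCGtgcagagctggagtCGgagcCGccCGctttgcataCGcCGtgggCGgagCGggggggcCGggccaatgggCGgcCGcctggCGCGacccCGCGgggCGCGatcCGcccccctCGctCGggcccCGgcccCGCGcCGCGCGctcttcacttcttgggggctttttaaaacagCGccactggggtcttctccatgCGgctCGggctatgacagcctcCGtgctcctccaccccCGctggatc
HOXB1: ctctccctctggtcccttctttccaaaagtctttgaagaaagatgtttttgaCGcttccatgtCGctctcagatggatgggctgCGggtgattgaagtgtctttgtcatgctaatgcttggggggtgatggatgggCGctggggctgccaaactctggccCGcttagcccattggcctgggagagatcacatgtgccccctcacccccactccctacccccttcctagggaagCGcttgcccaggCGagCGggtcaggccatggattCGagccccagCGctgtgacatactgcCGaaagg
HOXD13: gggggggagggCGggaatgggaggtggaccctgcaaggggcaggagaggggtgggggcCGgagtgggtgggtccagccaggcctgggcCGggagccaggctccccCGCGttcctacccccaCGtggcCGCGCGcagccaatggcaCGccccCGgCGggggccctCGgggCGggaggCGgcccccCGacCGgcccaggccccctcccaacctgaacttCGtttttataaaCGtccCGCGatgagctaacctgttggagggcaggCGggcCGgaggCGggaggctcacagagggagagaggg
HOXC4 and HOXC5: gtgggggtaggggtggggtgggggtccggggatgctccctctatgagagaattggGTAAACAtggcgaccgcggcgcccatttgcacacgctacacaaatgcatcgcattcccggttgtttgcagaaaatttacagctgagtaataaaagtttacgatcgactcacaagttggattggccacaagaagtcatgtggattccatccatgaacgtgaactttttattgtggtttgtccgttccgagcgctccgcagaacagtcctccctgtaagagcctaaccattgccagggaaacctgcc

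Across the 27 HOX windows the median was 22 CpG, against 14 in all 35116 windows of the table. Several of the HOX windows are alternative starts of HOXA3, with 0 to 29 CpG, so the median is over windows and not over genes. The 3 windows of HOX genes listed at 0 in both columns (HOXB1, HOXD13 and HOXD1) held 11 to 36 CpG, and those of genes at 1 FPKM or more held 0 to 44, so the ranges overlapped. The forkhead core TGTTTAC, searched on both strands, was found in 2 HOX windows, which are the single HOXC4 and HOXC5 stretch, where it lies on the opposite strand 188 bases before the start. It was found in 3.42% of all windows. The variant TATTTAC was in the windows of HOXA2 and HOXD1 and in 2.67% of all windows. Neither was found in the windows of HOXA9, HOXA10, HOXA11 or HOXA13.

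The cells had a posterior HOX pattern led by HOXA, with HOXC below it, little HOXD and no listed HOXB. Of the 39 genes, 17 reached 1 FPKM in induced cells and 14 in uninduced cells. Another 9 had values in at least 1 column but stayed under 1 FPKM in both, and 13 were listed at 0 in both. HOXA summed to 186 FPKM induced and 123 FPKM uninduced, HOXC to 52.5 FPKM induced and 45.1 FPKM uninduced, and HOXD to 12.05 FPKM induced and 9.09 FPKM uninduced. HOXA thus gave 74.2% of the summed HOX FPKM in induced and 69.3% in uninduced cells. By place in the cluster, paralog numbers 9 to 13 gave 86.3% of the HOX sum in both columns. Numbers 4 to 8 gave 11.5% induced and 12.2% uninduced, and numbers 1 to 3 gave 2.27% induced and 1.49% uninduced.

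**Figure D1:**
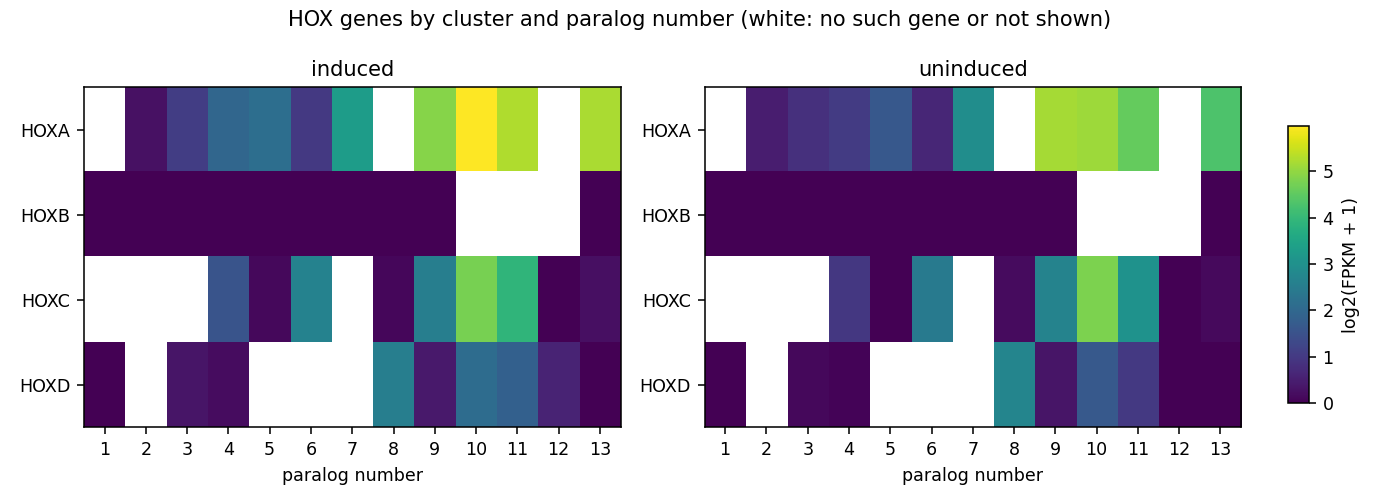
Level of 38 HOX genes as log2(FPKM + 1), by cluster (rows) and paralog number (columns), induced on the left and uninduced on the right; white squares are positions with no gene or not shown. The brightest squares are HOXA9, HOXA10, HOXA11, HOXA13 and HOXC10 in both columns, and the HOXB row is at 0 throughout.

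**Figure D2:**
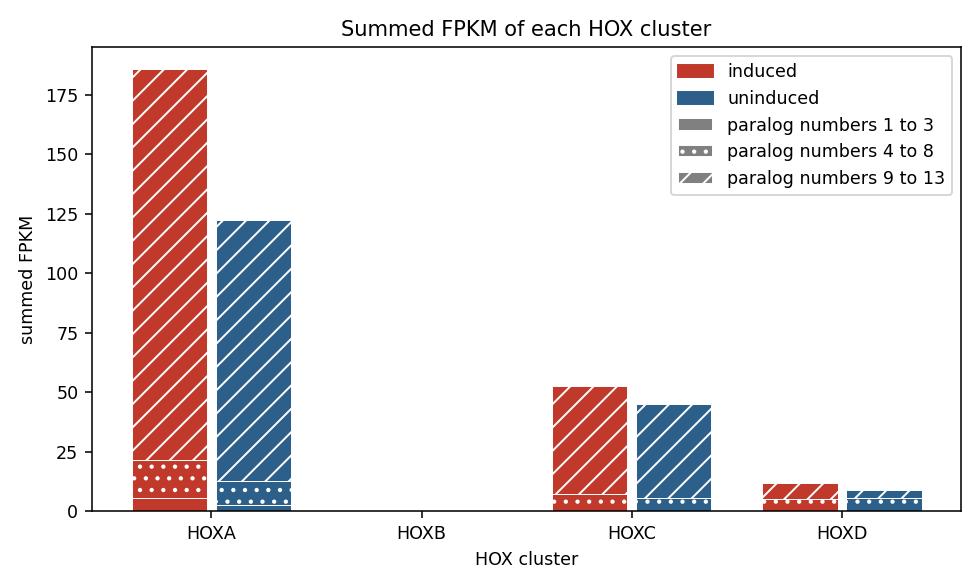
Summed FPKM of each cluster, induced (red, left) and uninduced (blue, right), divided by paralog number; the sums have no error of their own. Most of each HOXA and HOXC bar comes from numbers 9 to 13, and HOXB has no bar.

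At the posterior end of HOXA all 4 genes were well above 1 FPKM in both columns. HOXA10, which in the mouse patterns the lumbar spine and the reproductive tract, had the highest induced value of all HOX genes, 61.8 FPKM (17.7 to 106) induced against 33.3 FPKM (4.25 to 62.3) uninduced. HOXA11, needed in the mouse for the forearm and the uterus, was at 37.5 FPKM (11.5 to 63.5) induced and 22.5 FPKM (5.39 to 39.6) uninduced. HOXA13, the last gene of the cluster, was at 35.9 FPKM (8.58 to 63.2) induced and 18.7 FPKM (3.36 to 34.0) uninduced. These 3 were 1.86, 1.67 and 1.92 times as high in induced cells, in the order given, and in each case the intervals overlapped widely. The interval of the HOXA10 difference ran from -24.2 to 81.4 FPKM, so neither a change nor its absence was shown. HOXA9, known as a driver of blood cell expansion in leukaemia, was at 28.8 FPKM (0 to 65.0) induced and 35.1 FPKM (0 to 71.3) uninduced. It was the top HOX gene of the uninduced column but lay below HOXA10, HOXA11 and HOXA13 in the induced one, and its lower bound of 0 in both columns makes that order unsure. Its locus in the table (hg19 chromosome 7, 27202053 to 27219880) is shared with HOXA10, HOXA10-AS and further transcripts, so the split of reads between HOXA9 and HOXA10 is uncertain.

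The HOXA genes before HOXA9 were far lower, and their intervals all reached down to 0. HOXA7, a trunk gene, led them with 8.88 FPKM (0 to 19.4) induced and 6.64 FPKM (0 to 16.0) uninduced. HOXA5, which acts in lung development in the mouse, was at 3.49 FPKM (0 to 15.02) induced and 2.13 FPKM (0 to 8.63) uninduced. HOXA4 was at 2.90 FPKM (0 to 9.53) induced and 1.06 FPKM (0 to 4.39) uninduced, and HOXA3, a gene of the pharyngeal arches, at 1.13 FPKM (0 to 6.07) induced and 0.778 FPKM (0 to 3.38) uninduced. HOXA6 (0.985 FPKM induced, 0.551 FPKM uninduced) and HOXA2 (0.212 FPKM induced, 0.400 FPKM uninduced) stayed under 1 FPKM. From HOXA2 on the level did not climb evenly along the cluster: HOXA6 lay below both HOXA5 and HOXA7 in both columns, with overlapping intervals. HOXA3 to HOXA7 fall within a single locus entry of 51754 bases.

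All 10 HOXB genes, HOXB1 to HOXB9 and HOXB13, were listed at 0 FPKM, with bounds of 0 to 0, in both columns. These genes span the whole range from hindbrain (HOXB1) to hindgut and prostate (HOXB13). Between the first and the last of them, on hg19 chromosome 17 from 46605887 to 46806540, the table has 25 rows, of which 23 (92%) were at 0 in both columns. The 2 exceptions were the pseudogene RPL9P28 at 0.0563 FPKM and CTD-2377D24.6 at 0.0369 FPKM, both in induced cells only, with lower bounds of 0. The share of rows at 0 in both columns was 8.70% across the HOXA stretch, 19.0% across HOXC, 40.0% across HOXD and 61.5% in the whole table. The nearest rows at 1 FPKM or more lay outside the cluster. CALCOCO2, an autophagy receptor 101809 bases beyond HOXB13, was at 84.7 FPKM (24.6 to 145) induced and 82.0 FPKM (21.2 to 143) uninduced. SNX11, a sorting nexin 405451 bases before HOXB1, was at 15.7 FPKM (3.73 to 27.7) induced and 12.7 FPKM (2.13 to 23.2) uninduced. A value of 0 in this table has no count behind it, so no limit of detection can be given.

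In HOXC the highest gene was HOXC10, a hindlimb gene in the mouse, at 26.0 FPKM (0.444 to 51.5) induced and 26.8 FPKM (1.72 to 51.8) uninduced. HOXC11, its neighbour and also a hindlimb gene, was at 14.1 FPKM (0 to 28.6) induced and 7.30 FPKM (0 to 15.1) uninduced. The columns were thus nearly level for HOXC10 and 1.93 times apart for HOXC11, with overlapping intervals for both. HOXC6 was at 5.31 FPKM (0 to 16.5) induced and 4.48 FPKM (0 to 14.6) uninduced, and HOXC9 at 4.86 FPKM (0 to 15.6) induced and 5.36 FPKM (0 to 17.3) uninduced. HOXC4 was at 1.92 FPKM (0 to 8.30) induced and 0.942 FPKM (0 to 5.60) uninduced. HOXC5, HOXC8 and HOXC13, a hair follicle gene, lay between 0.0700 and 0.185 FPKM induced and were at most at 0.133 FPKM uninduced, and HOXC12 was listed at 0 in both. By the values alone HOXC fell off past HOXC11, whereas HOXA was high as far as HOXA13. The intervals of HOXC11 reached down to 0 in both columns and overlapped those of HOXC13, so where HOXC ended is unsure. HOXC4 to HOXC10 fall within a single locus entry of 74523 bases, and HOXC4 and HOXC5 share the start site shown above, so their separate values are uncertain. HOXC11 shares its locus entry with the noncoding RNA HOTAIR, so its value is uncertain in the same way.

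In HOXD only 3 of 9 genes reached 1 FPKM. HOXD8 was at 4.88 FPKM (0 to 10.5) induced and 5.56 FPKM (0 to 12.4) uninduced, and HOXD10, a limb and spinal cord gene in the mouse, at 3.32 FPKM (0 to 8.13) induced and 2.15 FPKM (0 to 5.31) uninduced. HOXD11 was at 2.59 FPKM (0 to 7.02) induced and 0.981 FPKM (0 to 2.86) uninduced. HOXD10 and HOXD11 share a locus entry, so the split of reads between them is uncertain. HOXD12 was at 0.502 FPKM (0 to 1.36) in induced cells and listed at 0 in uninduced cells. HOXD3, HOXD4 and HOXD9 lay between 0.154 and 0.334 FPKM induced and between 0.0425 and 0.263 FPKM uninduced. HOXD1 and HOXD13 were listed at 0 in both columns. Of the group 13 genes, HOXA13 was therefore the only one above 1 FPKM, with HOXC13 at 0.185 FPKM induced and 0.106 FPKM uninduced and HOXB13 and HOXD13 at 0.

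**Figure D3:**
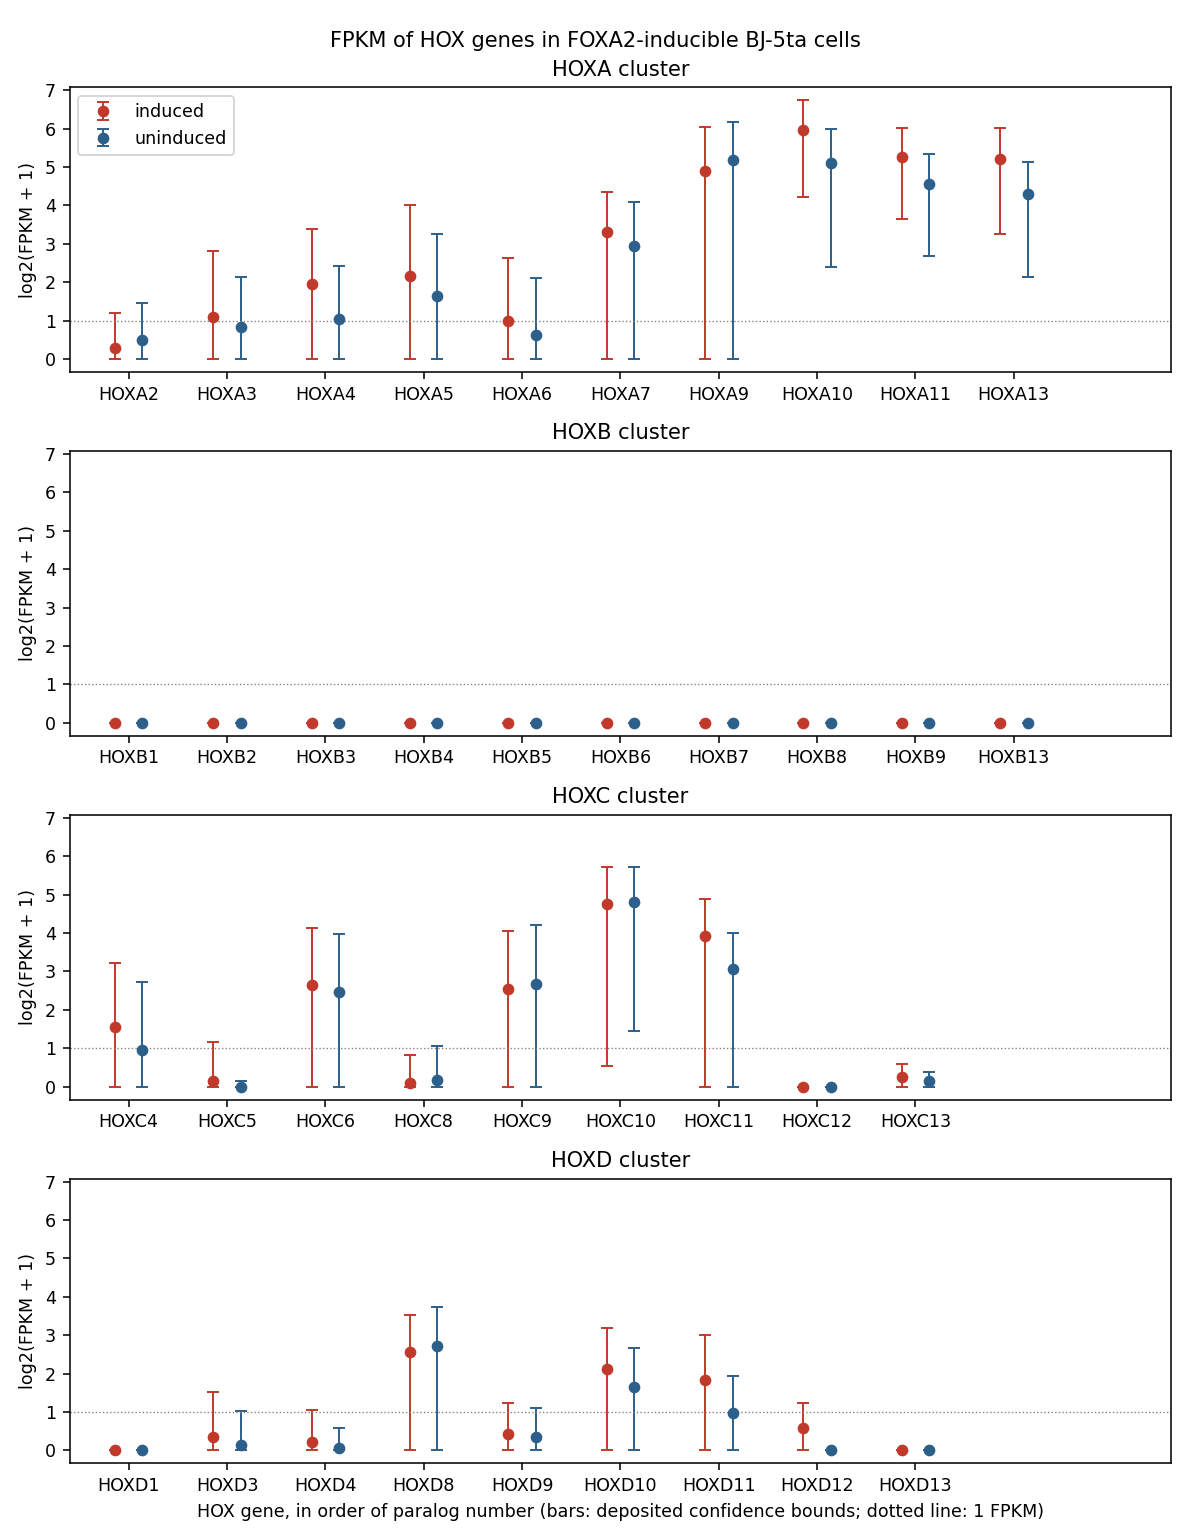
Level of 38 of the 39 HOX genes as log2(FPKM + 1), induced (red, left) and uninduced (blue, right), with bars for the deposited bounds and a dotted line at 1 FPKM. In every gene with bars the 2 intervals overlap or meet at 0, and bars that stay clear of 0 are seen in both columns for HOXA10, HOXA11, HOXA13 and HOXC10 alone.

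No HOX gene was called higher or lower after induction. Among all rows, 1.18% of the 14319 with 1 FPKM or more in at least 1 column were called, 0.726% higher and 0.454% lower. Under a wider criterion, an interval of the difference that leaves out 0, no HOX gene was called either, against 2.37% of rows (1.26% higher). The HOX bounds were wide. For the 17 HOX genes above this filter the upper bound exceeded the induced value by a median of 128%, against 99.97% for all kept rows. In 13 of these 17 the lower bound was 0 in both columns, so neither criterion could have called them. Only HOXA10, HOXA11, HOXA13 and HOXC10 could have been called. Among all kept rows the lower bound was 0 for 7187 in the induced and 7275 in the uninduced column. Of the 17 kept HOX genes 13 were higher and 4 lower in induced cells, and 53.7% of all kept rows were higher. HOXA3, HOXC4 and HOXD11, all among the 13 that were higher, passed the filter through their induced value alone. Of the 26 HOX genes with any value, including 9 under the filter, 20 were higher in induced and 6 higher in uninduced cells. The 6 were HOXA2, HOXA9, HOXC8, HOXC9, HOXC10 and HOXD8. With the columns brought to an equal FPKM sum, 23 were higher in induced and 3 higher in uninduced cells, since HOXC9, HOXC10 and HOXD8 changed sides. After quantile normalization 18 were higher in induced and 8 higher in uninduced cells, and among the kept genes HOXC6 was now on the uninduced side. The members are neighbours that share loci, so these counts are not independent.

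Differences on the log2(FPKM + 1) scale, which understates changes of low genes, were modest. Of the 17 kept HOX genes 1 differed by at least 2-fold, against 9.2% of kept rows that were at least 2-fold higher and 6.03% that were at least 2-fold lower. Among the named genes the largest were 0.92 for HOXA4, 0.91 for HOXA13, 0.87 for HOXA10, 0.86 for HOXC11 and 0.86 for HOXD11. HOXA9 had the lowest difference, -0.28. The median was 0.52 over the 17 kept genes, and 0.079 over all 39, against 0.054 over all kept rows. By paralog number the summed FPKM of group 11 was 54.2 induced and 30.8 uninduced, of group 10 91.1 induced and 62.2 uninduced, and of group 9 34.0 induced and 40.7 uninduced. Group 9 and group 8 (4.95 FPKM induced, 5.69 FPKM uninduced) had lower sums in induced cells, as had group 2, whose only detected gene was HOXA2. These 3 kept that order under both scalings, and the sums of HOXA, HOXC and HOXD stayed higher in induced cells.

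**Figure D4:**
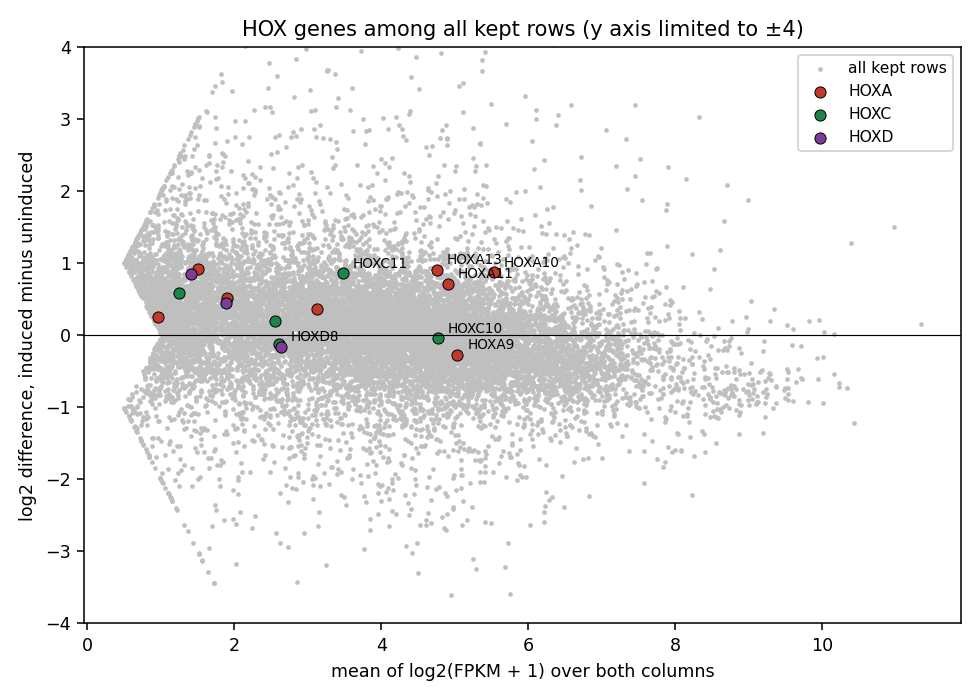
Log2 difference, induced minus uninduced, against the mean of log2(FPKM + 1) for all 14319 kept rows (grey) and 16 of the kept HOX genes (coloured by cluster). The HOX points lie between -0.28 and 0.92, inside the grey cloud.

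Differences in level between HOX genes of the same column were clearer than those between columns. In induced cells the lower bound of HOXA10, 17.7 FPKM, lay above the upper bounds of 19 others of the 26 HOX genes with a value there, among them HOXA2 to HOXA6, and that of HOXA11, 11.5 FPKM, above those of 16. HOXA13 stood clear of 13. Genes listed at 0 are left out of these counts. In uninduced cells, among 24 genes above 1e-06 FPKM, HOXA11 stood clear of 12 others, HOXA10 of 10, HOXA13 of 8 and HOXC10 of 5. HOXA9, HOXA10, HOXA11, HOXA13 and HOXC10 could not be separated from each other in either column. Among all kept rows, 87.7% were below HOXA10 in induced cells and 73.3% in uninduced cells, so the top HOX genes were moderately abundant messages.

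Noncoding RNAs reached 1 FPKM in the HOXA and HOXC clusters, and those of HOXB were listed at 0. In HOXD, HOXD-AS2 was at 0.298 FPKM induced and 0.374 FPKM uninduced, and HOXD-AS1 at 0.0131 FPKM induced and 0 uninduced. HOTAIR, which is transcribed between HOXC11 and HOXC12 and binds Polycomb proteins, was at 38.6 FPKM (1.30 to 75.8) induced and 17.9 FPKM (0 to 39.2) uninduced. HOTAIR and HOXC11 fall within a single locus entry, so the split of reads between them is uncertain. HOXA11-AS, antisense to HOXA11, was at 27.7 FPKM (0 to 58.9) induced and 20.6 FPKM (0 to 41.9) uninduced. The libraries do not keep strand, so reads of HOXA11 and HOXA11-AS cannot be told apart where they overlap. HOTAIRM1, at the low-number end of HOXA, was at 13.5 FPKM (0 to 45.6) induced and 14.2 FPKM (0 to 30.6) uninduced. HOXA10-AS was at 4.04 FPKM induced and 3.995 FPKM uninduced. HOTTIP, at the HOXA13 end, was at 1.65 FPKM induced and 1.29 FPKM uninduced, and shares a locus entry with HOXA13. Of the 23 such RNAs listed, 7 were kept and 10 were at 0 in both columns, including all 4 HOXB antisense RNAs and the rows of MIR10A, MIR10B, MIR196A1, MIR196A2, MIR196B and MIR615. Among all rows 61.5% were at 0 in both columns. Whether these libraries capture microRNAs was not tested. None of the 7 was called, against 1.18% of all kept rows. Of the 7 only HOTAIR had a lower bound above 0, in induced cells, so the others could not have been called.

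HOX proteins bind DNA together with TALE homeodomain partners of the PBX, MEIS and PKNOX families, and 8 of the 9 partner genes were kept. PBX2 was at 44.1 FPKM (12.3 to 75.8) induced and 36.7 FPKM (9.61 to 63.8) uninduced, and MEIS3 at 41.2 FPKM (14.4 to 68.0) induced and 33.3 FPKM (10.9 to 55.7) uninduced. MEIS1, the partner of HOXA9 in leukaemia, was at 15.4 FPKM (2.52 to 28.2) induced and 34.2 FPKM (8.53 to 59.8) uninduced, and MEIS2 at 23.9 FPKM (4.22 to 43.6) induced and 29.6 FPKM (7.42 to 51.9) uninduced. Of the 8, 4 were higher and 4 lower in induced cells, and the median difference was -0.02. None of the 8 was called, against 1.18% of all kept rows. PKNOX2 was near 0.

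**Figure D5:**
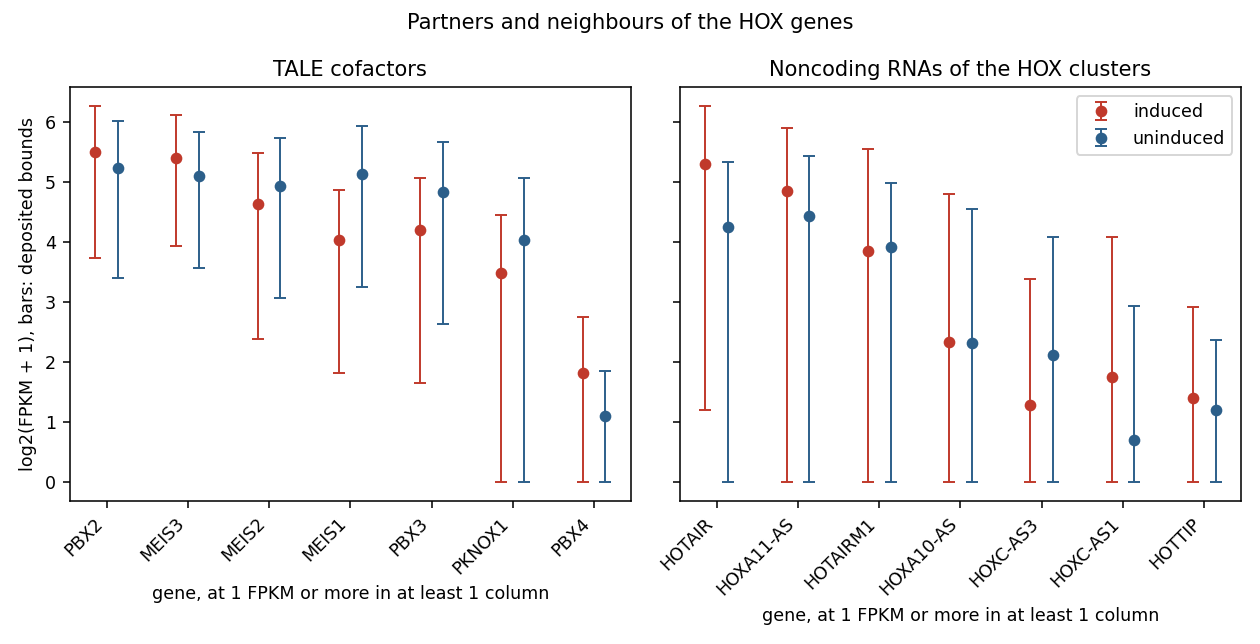
Levels as log2(FPKM + 1) of 7 kept TALE partners (left) and noncoding RNAs of the HOX clusters (right), induced (red) and uninduced (blue), with bars for the deposited bounds. The intervals of the 2 columns overlap for each gene; MEIS1 (15.4 against 34.2 FPKM) and HOTAIR (38.6 against 17.9 FPKM) lie furthest apart among those above 10 FPKM in both columns.

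Genes flanking the clusters, and regulators of HOX transcription, had overlapping intervals too. Of the 22 flanking genes listed, 15 were kept, led by HNRNPA1 (265 FPKM induced, 539 FPKM uninduced), ATP5G2 (184 and 225 FPKM in the same order), ATP5G3 (129 and 192 FPKM) and TAX1BP1 (95.7 and 78.3 FPKM). EVX2, PRAC1 and PRAC2, next to HOXD13 and HOXB13, were listed at 0 in both columns, and EVX1, next to HOXA13, was at 0.0381 FPKM induced and 0 uninduced. Of the 31 regulators listed, 23 were kept and none was called, against 1.18% of all kept rows. The 4 highest were RAD21, a cohesin subunit (67.8 FPKM induced, 125 FPKM uninduced), MAZ (77.6 FPKM induced, 112 FPKM uninduced), DPY30 (46.8 FPKM induced, 63.5 FPKM uninduced) and GSK3A (38.4 FPKM induced, 45.3 FPKM uninduced). EZH2, the Polycomb methyltransferase that silences HOX genes, was at 8.61 FPKM (0.518 to 16.7) induced and 23.3 FPKM (7.82 to 38.7) uninduced. It was named after its values were seen, as the only 1 of the 23 at least 2-fold apart on the log2(FPKM + 1) scale. Among all kept rows 9.2% were at least 2-fold higher and 6.03% at least 2-fold lower in induced cells. CDX2 and CDX4, which activate HOX genes in the embryo, were at 0 in both columns.

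Among 43 listed homeobox genes outside the clusters, 17 were kept. Of these, 14 were higher in induced cells and none was called, with a median difference of 0.69. Among all kept rows 53.7% were higher and 1.18% were called, with a median difference of 0.054. PRRX1, a limb and skull mesenchyme factor, was at 166 FPKM (25.7 to 305) induced and 106 FPKM (12.6 to 200.1) uninduced, and PRRX2 at 61.8 FPKM (23.0 to 101) induced and 37.8 FPKM (11.0 to 64.6) uninduced. DLX2 was at 28.9 FPKM (10.7 to 47.1) induced and 7.58 FPKM (1.36 to 13.8) uninduced. For DLX2 the interval of the difference excluded 0, as it did for 2.37% of all kept rows, although the 2 intervals overlapped.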

How the data were processed

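Libraries of 4 samples came from a non-stranded TruSeq protocol, per the labels' protocols. The submitters' processing notes name TopHat and the hg19 build; its version, the quantifier and any filter are not given in the sources used for this work. Values deposited by the authors are FPKM with a lower and an upper bound, per the file headers, in 1 column per group; the level of the bounds, and whether a column combines both samples, is not stated. A further 3 value columns, of 1 condition matching no sample used here, were left out. Total counts are not in the table. Among 2973 single-start rows between 0 and 1 FPKM, the most frequent ratio of induced to uninduced values was 0.86. Only 131 of these rows lay at or close to it. If it is the ratio for 1 fragment, the depth ratio of induced to uninduced would be 1.16, so that figure is weakly based. FPKM sums were 482743 induced and 553536 uninduced.

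Rows at 1 FPKM or more in at least 1 column were kept (14319; 3 with malformed bounds were never called). Calls, log2(FPKM + 1) differences and promoter searches were computed over whole tables in Python 3.11.15 with pandas 2.3.3, and both call rules were tested on simulated data with bounds as wide as these, where most of the known changes went uncalled. A missing call therefore does not show that a gene did not change. The simulation assumed normal noise and a set confidence level for the bounds. That level is not stated, so the share of changes recovered depends on the assumption. The members, gene lists and rules were chosen with earlier results of these data known. HOX genes were all accounted for, those at 1 FPKM or more with their bounds; other lists give called members or else the 4 highest, and the values of some genes are left out of the text. The noncoding RNAs, markers, flanking genes and regulators named beyond that were chosen after their values were seen. The alternatives were 2 scalings, 2 filters, 2 pseudocounts, 2 thresholds and a wider criterion for calls.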

Additional observations from a re-analysis of the deposited data

How the results depend on the processing

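No HOX gene was called under any of the 5 alternatives run for that count, which were both scalings, both filters and the interval of the difference. HOX genes with a lower bound of 0 in both columns could not be called under any of them. The median difference of the kept HOX genes, 0.52 as deposited, was 0.63 with both columns scaled to the same FPKM sum, 0.27 after quantile normalization, 0.37 with a mean of at least 5 FPKM, 0.68 with a pseudocount of 0.1 FPKM and 0.25 with a pseudocount of 5 FPKM. With no filter the median over all 39 HOX genes, 13 of them at 0, was 0.079. Scaling to the same sum moved the median of all kept rows to 0.23, and relative to all kept rows the HOX median was 0.46 as deposited, 0.40 after that scaling and 0.30 after quantile normalization. With columns scaled to the same sum, 18 HOX genes were at 1 FPKM or more in induced cells. Of these, 5 were at least 2-fold higher, against 12.1% of all kept rows. With a pseudocount of 0.1 FPKM, 3 of the 17 kept HOX genes were at least 2-fold higher, against 13.8% of kept rows. HOXD11, 1 of these 3, passed the filter through its induced value alone. After quantile normalization the count of HOX genes at least 2-fold higher was 0, against 7.07%. With a mean of at least 5 FPKM it was 0 (6.79% of kept rows), as with a pseudocount of 5 FPKM (3.55%). No HOX gene was 2-fold lower, against 3.34% to 7.62% of kept rows under these settings. At 5 FPKM or more there were 8 HOX genes induced and 9 uninduced. With the interval of the difference, 1 outside homeobox gene, DLX2, was called, against 2.37% of all kept rows. The HOXA sum was 199 FPKM induced and 115 FPKM uninduced at the same FPKM sum, and 189 FPKM induced and 124 FPKM uninduced after quantile normalization. No paired analysis was possible because each group has a single column of values; limma, the replicate block and leaving out samples were not run for that reason. The table holds no counts, so depth is unknown and no floor can be given for the 13 genes listed at 0.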
